A study of Mus musculus with 4 samples.

Results

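The genes described here are those of vesicle traffic and the secretory pathway, the machinery that carries proteins between membrane compartments, as measured in granulocyte-monocyte progenitors. They were chosen by symbol alone: Rab genes numbered as GTPases or their partners, the Vps, Snx, Tmed, Stx, Vamp, Trappc and Exoc genes, Sec genes with a number, Cop genes without Cops, and the Ap1, Ap2 and Ap3 genes. Of 5059 genes with an NCBI gene number in the lists, 96 fitted these names, with 137 of the 8219 listed transcripts. The symbol rule also took in some genes of other function, namely Cop1, which encodes a ubiquitin ligase, and Coprs, which encodes a cofactor of an arginine methyltransferase.

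Poly(A)-selected RNA was sequenced from bone marrow progenitors of wild-type mice and of mice deficient in MST1, with 2 libraries per genotype and cells of 10 mice pooled in each library. The p-values therefore measure the spread between pools, and that between single mice is not seen. MST1 was taken to be the Hippo pathway kinase that Stk4 encodes; the sample titles call the deficient libraries KO, and the labels give no gene symbol, allele, strain, age or sex. Sorted cells of both groups were kept in serum-containing medium without any drug. The lists hold only transcripts that the authors' annotation lacked, so each value covers the unannotated transcripts of a gene and not its annotated ones, which were not analysed here. FPKM, the scale used for levels, is the estimated count per unit of transcript length and of library size.

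Newly made secretory proteins leave the endoplasmic reticulum in COPII-coated vesicles, return in COPI-coated ones, and are sorted at the trans-Golgi network and endosomes with clathrin adaptors, retromer and sorting nexins. Rab GTPases mark the compartments, long tethers capture the arriving vesicle, and SNARE proteins (syntaxins and vesicle-associated membrane proteins) drive fusion. Granulocyte-monocyte progenitors give rise to cells whose granules are filled through this pathway.

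The 4 libraries held between 928977 and 1079382 estimated counts in the listed transcripts. No unannotated transcript of Stk4 was listed, so the genotype could not be checked. Of 21 progenitor markers 6 were listed, Csf3r and Gfi1 among them; Mpo, Elane, Prtn3, Cebpa and Cd34 were not, so the labelled cell type could be checked only in part. No marker of another cell type passed the test with edgeR, and the sums of some marker lists lay apart between the groups. The summed FPKM of 4 listed of 9 eosinophil, basophil and mast cell markers was 151.4 and 190.4 for the wild-type pools against 113.1 and 126.3 for the MST1-deficient pools, with Prg2, Epx, Cpa3, Mcpt8 and Fcer1a unlisted. That of 5 listed of 13 erythroid markers was 37.2 and 43.0 against 28.3 and 14.2, with Klf1, Gata1 and Slc4a1 unlisted. The 5 listed of 9 T and NK cell markers summed to 72.4 and 73.6 FPKM for wild type against 61.5 and 33.4 for MST1 deficiency, with Cd3d, Cd3e, Cd2 and Lck unlisted. The 4 Y chromosome genes summed to 3.6 and 0.0 FPKM for wild type against 23.4 and 14.8 for MST1 deficiency, and the sex of the pools is not given. Of the other lists, 4 of 11 neutrophil, 1 of 10 monocyte and macrophage, 3 of 6 megakaryocyte, 4 of 8 B lineage and 0 of 6 stem cell markers were listed. The part of these differences in any result below was not tested, and fewer cells of a type and less RNA per cell cannot be told apart in such bulk samples.

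The traffic genes held a small and similar fraction of the counts in every library. Their transcripts held 1.67% and 1.76% of the estimated counts of all genes in the wild-type pools against 1.77% and 1.88% in the MST1-deficient pools, replicate 1 first here and throughout. The fractions of both MST1-deficient pools lay above those of both wild-type pools, by a narrow margin, and this was not tested. Summed FPKM came to 519.8 and 496.9 for the wild-type pools against 552.5 and 508.7 for the MST1-deficient pools, with overlap between the groups. The level was concentrated in few members: 5 of the 96 genes carried 46.8% of the summed FPKM and 10 carried 61.9%. Between 78 and 86 members were listed per library, and between 52 and 59 reached 1 FPKM.

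**Figure D1:**
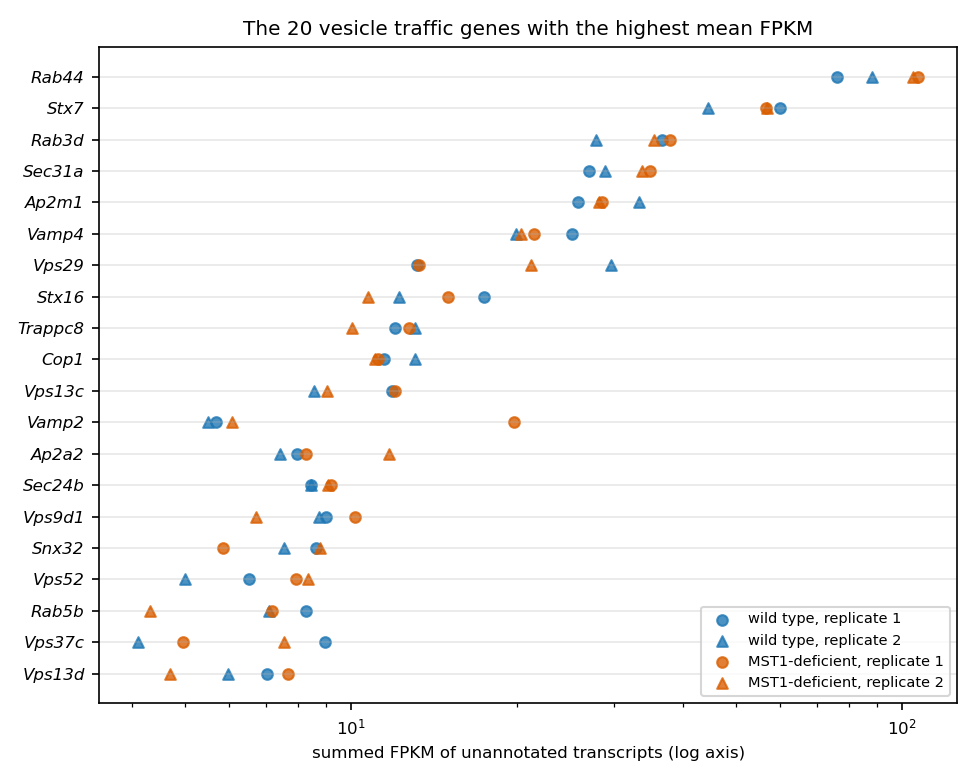
Summed FPKM of the unannotated transcripts (log axis) of the 20 traffic genes with the highest mean, 1 point per library (circles replicate 1, triangles replicate 2). Rab44 led in each library, and the libraries of both genotypes lay close together for most genes, with Vamp2 in MST1-deficient replicate 1 and Vps29 spread apart.

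Rab44, which encodes an unusually large Rab protein of haematopoietic cells, was the most abundant member (gene 442827, chromosome 17, 29114128 to 29148980), with 76.11 and 88.23 FPKM in the wild-type pools against 106.9 and 104.86 in the MST1-deficient pools. Both MST1-deficient libraries lay above both wild-type ones, but the test was not passed (log2 fold change 0.42, SE 0.22, adjusted p = 0.943 with edgeR). Stx7, a SNARE of late endosomes, came next with 60.14 and 44.53 against 56.53 and 56.78 FPKM. Rab3d, a GTPase of secretory granules, had 36.63 and 27.81 against 37.91 and 35.43 FPKM. For these 2 genes the groups overlapped, and wild-type replicate 2 was the lowest library.

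Across the members, MST1-deficient and wild-type progenitors differed in no gene past the threshold. Of the 96 genes, 60 had at least 1 FPKM in at least 2 libraries and were tested, and the other 36 were too low. With edgeR 0 of the 60 passed an adjusted p of 0.05 in either direction, as did 0.0% of all 3221 tested genes; the lowest adjusted p of a member was 0.262, for Tmed5. At an unadjusted p under 0.05 there was 1 higher member (Stx11; 3.01% of all genes tested were higher at this level) and there were 2 lower ones (Tmed5 and Snx13; 2.64% of all genes), that is, 3 of 60 members in either direction where 5.65% of all genes passed this level. DESeq2 called 1 member (1.43% of all genes) and limma on log2(FPKM + 0.5) called 1 (0.155% of all genes), in both cases Tmed5.

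Groups were said not to overlap where scaled counts and FPKM both kept them apart. The MST1-deficient libraries lay above both wild-type ones in 9 of the 60 members, where 12.4% of all tested genes did so, and below both in 6, where 14.1% did. The 9 were Stx11, Vamp2, Rab3gap2, Stxbp2, Rab44, Vps52, Sec31a, Snx30 and Vps11, and the 6 were Tmed5, Snx13, Snx21, Vps37a, Sec16b and Vps51. The median log2 fold change was -0.03 over the tested members and 0.01 over all tested genes. Of the members 40 (66.7%) lay within 0.5 of 0 on the log2 scale, beside 67.0% of all tested genes. The middle of the distribution of all genes, from the 5th to the 95th percentile, ran from -1.19 to 1.08, and outside it lay 4 members on the lower side (Tmed5, Snx13, Vps13b and Tmed7) and 2 on the upper side (Stx11 and Vamp2).

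**Figure D2:**
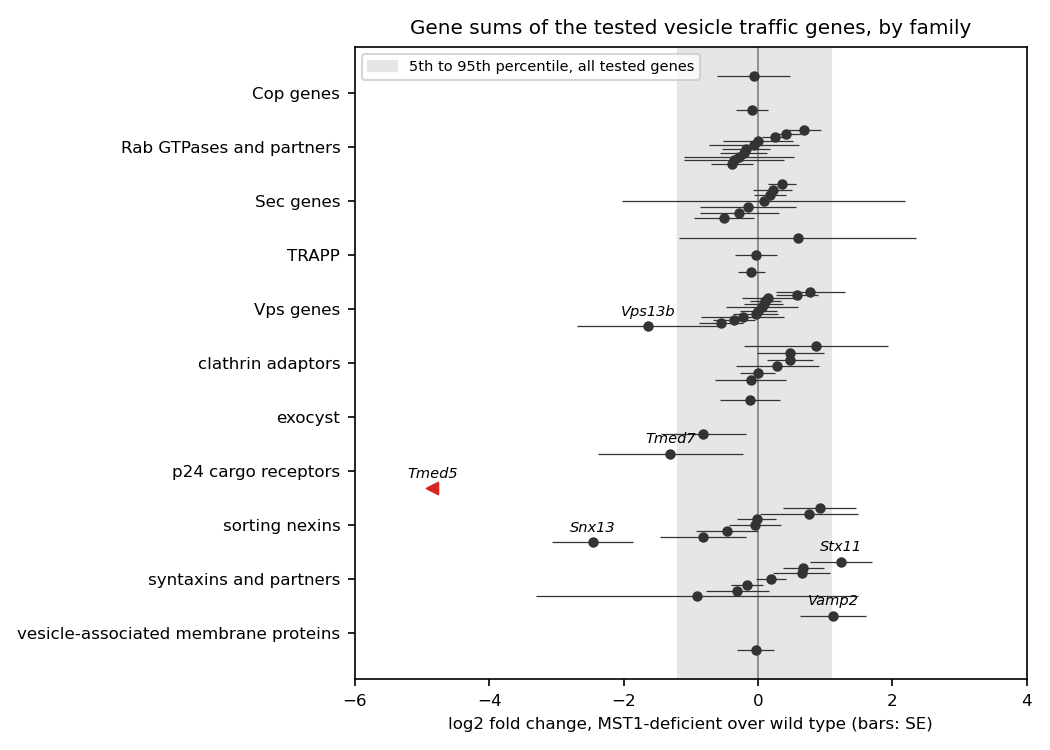
Log2 fold changes (MST1-deficient over wild type, gene sums) of the 60 tested members by gene family, with bars for the SE and a grey band from the 5th to the 95th percentile of all 3221 tested genes (-1.19 to 1.08). The red triangle is the bound for Tmed5, which was at 0 in both MST1-deficient libraries; most other members lie within the band.

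The early secretory pathway held the member with the lowest p. Tmed5 encodes a p24 cargo receptor that cycles between the endoplasmic reticulum and the Golgi in COPI- and COPII-coated vesicles (gene 73130, chromosome 5, 108121556 to 108132620, minus strand). Its single unannotated transcript, 1407 bases long, had 98.88 and 81.85 estimated counts (9.76 and 8.69 FPKM) in the wild-type pools and was listed in neither MST1-deficient library. With a floor of 3 counts per library in place of 0, the listed value was at least 28.8-fold lower in MST1-deficient cells, with no overlap between the groups. Absence there cannot be told apart from assembly in another form. Tmed5 passed the filter on low values through the wild-type pools alone, so that it had to differ to be tested, as did Snx13 among the members. The adjusted p was 0.262 with edgeR, 3.93e-05 with DESeq2 and 0.0320 with limma on log2(FPKM + 0.5). In GENCODE M21 the longest of 6 annotated Tmed5 transcripts has 3800 bases, and the level of the annotated forms was not analysed here.

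Transcripts that were well counted in some libraries and at 0 in others were common in these lists. Of 70 member transcripts with at least 50 estimated counts in some library, 11 (15.7%) were at 0 in at least 1 other library, beside 19.3% of 4179 such transcripts of all genes. A transcript of Tmed5 was the 1 member transcript with at least 50 counts in each wild-type pool and 0 in each MST1-deficient pool, a pattern held by 21 transcripts of all genes. A transcript of Vps13d was the 1 member transcript with the opposite pattern, held by 18 of all genes.

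The start region of Tmed5, the member with the lowest p, and that of Ap2m1, the most abundant coat adaptor gene, are shown as examples. Both are RefSeq promoter windows of GRCm38.p6, from 250 bases before to 50 after the gene start, printed 5′ to 3′ on the gene's strand; capitals mark the E-box CACGTG.
Tmed5, chr5:108132571-108132870, minus strand: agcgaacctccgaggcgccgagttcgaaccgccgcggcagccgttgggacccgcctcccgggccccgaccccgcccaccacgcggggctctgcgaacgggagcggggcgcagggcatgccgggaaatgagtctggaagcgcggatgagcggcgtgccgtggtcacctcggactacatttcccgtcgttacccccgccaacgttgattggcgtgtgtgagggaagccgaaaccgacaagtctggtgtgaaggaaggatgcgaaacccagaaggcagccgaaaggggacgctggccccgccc
Ap2m1, chr16:20535230-20535529, plus strand: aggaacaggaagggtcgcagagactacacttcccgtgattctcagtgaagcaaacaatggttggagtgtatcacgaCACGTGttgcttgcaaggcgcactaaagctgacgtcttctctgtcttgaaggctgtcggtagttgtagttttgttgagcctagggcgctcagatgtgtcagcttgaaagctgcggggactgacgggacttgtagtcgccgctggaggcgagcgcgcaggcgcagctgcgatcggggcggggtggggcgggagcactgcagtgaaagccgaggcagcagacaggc
The Tmed5 window held no CACGTG and the Ap2m1 window held it. Such gene starts need not be those of the unannotated transcripts, and any bearing of the motif on levels was not tested. CACGTG, which reads the same on both strands, was found in the windows of 9 of 75 member genes with a promoter entry (12%), namely Ap2m1, Exoc1, Rab20, Rab3gap2, Rab3il1, Sec22c, Snx8, Stxbp2 and Vamp4, and in those of 8.09% of all 27025 genes in the table. The longer form TCACGTGA was found in no member window and in 0.974% of all windows. The GC content of member windows had a median of 61.3%, beside 52.7% for all 32851 windows. These references take in genes without a listed transcript, unlike the shares of all genes given elsewhere. A comparison with the listed genes alone was not made.

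Tmed7, the other listed p24 receptor gene (gene 66676, chromosome 18, 46585928 to 46597535), had 87.38 and 164.43 counts in the wild-type pools against 9.72 and 90.1 in the MST1-deficient pools. MST1-deficient replicate 1 was far below the other libraries. Replicate 2 lay between the wild-type counts, but its FPKM of 3.47 was just below the 3.61 and 7.31 of the wild-type pools. The difference did not pass (log2 fold change -1.30, SE 1.08). Summed over both genes, p24 receptors had 13.4 and 16 FPKM in the wild-type pools against 0.5 and 3.5 in the MST1-deficient pools. Tmed5 gave 9.76 and 8.69 FPKM of the wild-type sums and was at 0 in both MST1-deficient pools. The sum therefore does not describe the family apart from that gene.

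No gene of the COPII coat passed the test. Sec31a, the outer coat subunit, had 27.03 and 28.9 FPKM in the wild-type pools against 34.89 and 33.67 in the MST1-deficient pools, without overlap (log2 fold change 0.36, SE 0.20, adjusted p = 0.946 with edgeR). Sec24b, a cargo-binding subunit of the inner coat, had 8.45 and 8.47 against 9.2 and 9.08 FPKM. Sec16b, which helps to organise the exit sites of the endoplasmic reticulum, had 1.96 and 2.41 against 1.31 and 1.49 FPKM. Of 13 Sec genes 7 were tested, and their log2 fold changes ran from -0.51 to 0.36.

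Few COPI coat subunits were listed. Copg2, the gamma 2 subunit of the COPI coat, had 3.19 and 2.09 FPKM in the wild-type pools against 2.93 and 1.94 in the MST1-deficient pools. Copa and Copb2 stayed under 1 FPKM throughout. Trappc8 and Trappc13, subunits of the TRAPP tethering complex, had 12.03 and 13.08 against 12.72 and 10.04 FPKM and 5.47 and 4.3 against 4.83 and 4.31 FPKM. All 3 tested TRAPP genes overlapped between the groups, as most tested genes did (12.4% of all lay apart above and 14.1% below).

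Among 17 Rab GTPase and partner genes, 10 were tested and 0 had an unadjusted p under 0.05 with edgeR, where 5.65% of all tested genes did. Rab3gap2, the non-catalytic subunit of an enzyme complex that acts on Rab proteins (gene 98732, chromosome 1, 185204088 to 185286756), had 238.77 and 248.91 counts in the wild-type pools against 423.84 and 330.2 in the MST1-deficient pools. Both MST1-deficient libraries were higher (log2 fold change 0.68, SE 0.26, adjusted p = 0.890 with edgeR). Rab5b, a GTPase of early endosomes, had 8.28 and 7.1 against 7.2 and 4.31 FPKM, with the lowest value in MST1-deficient replicate 2.

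No gene of endosomal sorting or of the tethers passed the test. Of 17 Vps genes 12 were tested, 2 with both MST1-deficient libraries above wild type and 2 below, beside 12.4% and 14.1% of all tested genes. Vps29, a retromer subunit, had 13.19 and 29.65 FPKM in the wild-type pools against 13.26 and 21.23 in the MST1-deficient pools: in each genotype replicate 2 was the higher library. Vps13c, a bridge-like lipid transfer protein gene, had 11.87 and 8.55 against 11.99 and 9.05 FPKM, with replicate 1 higher in each genotype. Vps11, a core subunit of the tethers of endosomes and lysosomes, had 1.01 and 1.24 against 2.05 and 1.67 FPKM. Vps52 and Vps51 encode subunits of the same Golgi tether; Vps52 had 6.54 and 4.99 against 7.93 and 8.36 FPKM, and Vps51 had 5.11 and 5.87 against 4.93 and 3.41. These 2 partners thus lay on opposite sides, neither past the threshold. Vps54, also tested, had 6.1 and 3.02 against 5.29 and 4.35 FPKM, with overlap between the groups.

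The exocyst is the tether of secretory vesicles at the plasma membrane, and the unannotated transcripts of its genes were low. Exoc2 had 4.4 and 2.03 FPKM in the wild-type pools against 3.09 and 2.52 in the MST1-deficient pools. Exoc3 had 2.21 and 1.54 against 1.67 and 0.5. The other 5 listed exocyst genes were not tested. Of 8 clathrin adaptor genes 6 were tested and all 6 overlapped between the groups, as most tested genes did (12.4% of all lay apart above and 14.1% below). Ap2m1, the medium subunit of the AP-2 adaptor of endocytosis, had 25.86 and 33.29 against 28.56 and 28.19 FPKM. Ap2a2, a large subunit of the same adaptor, had 7.97 and 7.42 against 8.29 and 11.74, where MST1-deficient replicate 2 was the highest library.

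Snx13 was the sorting nexin with the largest difference. It encodes an endosomal protein that carries a domain acting on G protein alpha subunits (gene 217463, chromosome 12, 35046147 to 35147480). Its 2 unannotated transcripts summed to 112.79 and 153.59 counts in the wild-type pools against 14.41 and 32.81 in the MST1-deficient pools, that is, 2.895 ± 0.757 FPKM (SD, n = 2) against 0.490 ± 0.212. It too reached 1 FPKM in the wild-type pools alone and entered the test through them. The groups did not overlap and the log2 fold change was -2.46 with an SE of 0.60, but the adjusted p was 0.622 with edgeR and 0.0776 with DESeq2. Neither form behaved alike in both libraries of a genotype: the form of 6137 bases had 112.79, 87.09, 0 and 32.81 counts and that of 6236 bases 0, 66.5, 14.41 and 0, with the wild-type pools first. Snx29 had 3.61 and 3.81 against 4.34 and 2.83 FPKM, and Snx32 had 8.62 and 7.56 against 5.85 and 8.79. Both overlapped between the groups, as did 4 of the 7 tested sorting nexins and most tested genes (12.4% of all lay apart above and 14.1% below).

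SNARE genes held the higher member with the lowest p. Stx11, a syntaxin needed for the release of cytotoxic granules (gene 74732, chromosome 10, 12938217 to 12964498), had 59.98 and 61.4 counts in the wild-type pools against 92.85 and 181.34 in the MST1-deficient pools. Both MST1-deficient libraries were higher, though they differed from each other by more than the wild-type pair did (3.680 ± 0.240 FPKM against 8.050 ± 2.546, SD, n = 2). The log2 fold change was 1.23 with an SE of 0.46, and the adjusted p was 0.883 with edgeR. The unadjusted p was 0.0493 with edgeR, just under 0.05. It was 0.05495 with DESeq2 and 0.0391 with limma on log2(FPKM + 0.5). Without MST1-deficient replicate 2 the log2 fold change was 0.67.

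Stxbp2, the Munc18-type partner of Stx11 in granule release (gene 20911, chromosome 8, 3630960 to 3643998), had 87.41 and 74.59 counts in the wild-type pools against 118.67 and 129.26 in the MST1-deficient pools. Both MST1-deficient libraries were higher (log2 fold change 0.68, SE 0.31, adjusted p = 0.929 with edgeR). Both genes are best known from cytotoxic cells, and among the T and NK cell markers Klrc1 had 19.71 and 22.29 FPKM in the wild-type pools against 3.98 and 4.34 (unadjusted p = 0.00156, adjusted p = 0.274 with edgeR). Ncr1 had 5.41 and 4.93 against 9.86 and 7.63 FPKM (unadjusted p = 0.0261, adjusted p = 0.770 with edgeR). Klrd1 and Klrb1c, also tested, overlapped between the groups (log2 fold changes -0.314, SE 0.356, and -1.829, SE 2.025). Of the 4 tested markers Ncr1 alone was thus higher. The part of these markers in the values of Stx11 and Stxbp2 was not tested. Vamp2, a vesicle SNARE of exocytosis, had 138.33 and 127.91 counts against 393.39 and 161.99. Its difference rested mainly on MST1-deficient replicate 1, in which a form of 2786 bases had 198.61 counts where the other libraries had 23.45, 4.2 and 11.32. Vamp4, a SNARE of the trans-Golgi network, had 25.15 and 19.94 against 21.51 and 20.34 FPKM, and Stx16, which acts on the same route, had 17.4 and 12.2 against 15.01 and 10.72. Both genes overlapped between the groups.

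**Figure D3:**
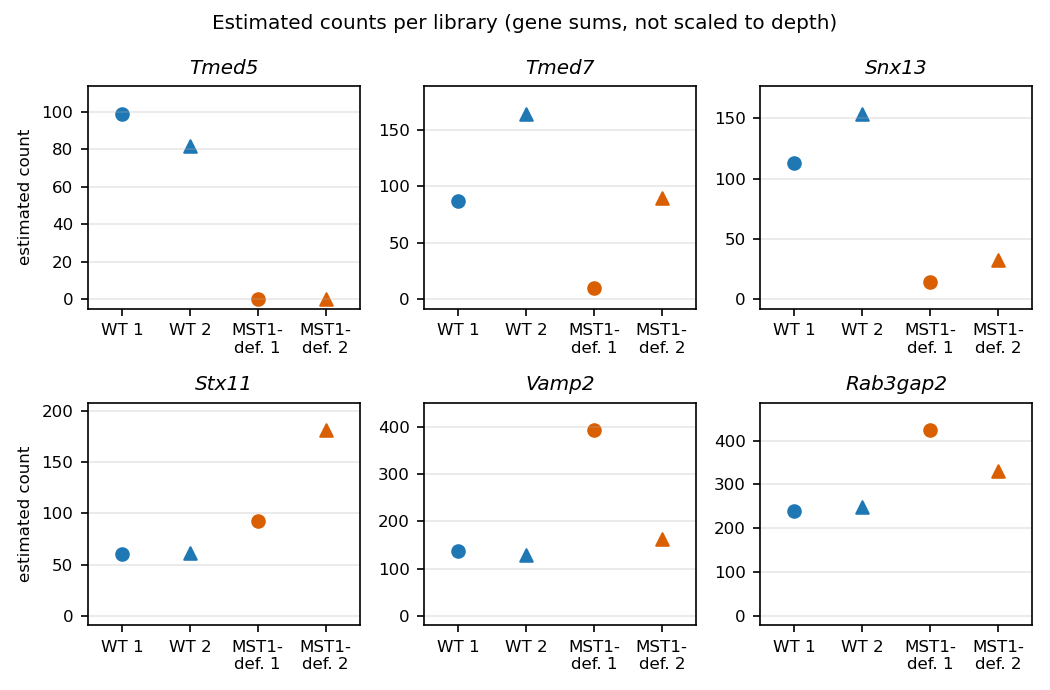
Estimated counts per library, summed over the unannotated transcripts of 6 traffic genes (blue wild type, orange MST1-deficient; circles replicate 1, triangles replicate 2). Tmed5 was at 0 in both MST1-deficient libraries, Tmed7 was low in MST1-deficient replicate 1 alone, and Vamp2 was high in that library.

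At the level of single transcripts the members again gave no call with edgeR: 0 of 75 tested member transcripts passed (0.0% of all 4661 in either direction), with a lowest adjusted p of 0.397. At an unadjusted p under 0.05 there were 3 higher (2.27% of all tested transcripts were higher at this level) and 2 lower (2.98%), with 5.26% of all tested transcripts in either direction. The 3 higher ones were 2 forms of Rab44 and a form of Stxbp5, and the 2 lower ones were the forms of Tmed5 and Rab33b. Both MST1-deficient libraries lay above wild type in 13 member transcripts, where 12.5% of all tested transcripts did, and below in 9, where 16.3% did. DESeq2 called 2 member transcripts (2.21% of all), those of Tmed5 and of the 3940-base form of Rab44, and limma on log2(FPKM + 0.5) called 0 (0.107% of all).

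Rab33b, a Golgi GTPase that also acts in autophagy (gene 19338, chromosome 3, 51483966 to 51496228), was listed with different forms in the 2 genotypes. A form of 3272 bases had 31.9 and 30.2 counts in wild type and was listed in neither MST1-deficient library, at least 9.98-fold lower, and it entered the test through the wild-type pools alone. A form of 3004 bases was missing from the wild-type lists and had 39.37 and 9.56 counts in MST1-deficient ones, at least 8.43-fold higher. Both bounds hold for the listed values alone, since a missing form cannot be told apart from one assembled in another form. The sum of both forms, 31.9 and 30.2 counts in the wild-type pools against 39.37 and 9.56 in the MST1-deficient pools, overlapped between the groups (log2 fold change -0.28, SE 0.83). The 3004-base form was under the filter on low values, so the exchange was not tested in the main test of balance. Without that filter the unadjusted p was 0.00239 and the adjusted p was 0.165 with diffSplice, the lowest among the members. Vps9d1 followed with an unadjusted p of 0.0346 in the same setting.

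Rab44 was listed with 4 forms, of which a pair differed more between the genotypes than their sum. The form of 3940 bases had 70.8 and 65.21 counts in the wild-type pools against 366.78 and 193.82 in the MST1-deficient pools (log2 fold change 2.10, SE 0.46, adjusted p = 0.468 with edgeR and 0.0252 with DESeq2). The form of 3579 bases had 452.42 and 180.73 against 982.01 and 771.4 counts (log2 fold change 1.57, SE 0.45, adjusted p = 0.743 with edgeR). The groups overlapped in neither of these forms. The form of 3726 bases made up 58.3% and 79.6% of the gene's FPKM in the wild-type pools against 28.5% and 57.0% in the MST1-deficient pools, the lowest share being in MST1-deficient replicate 1. The share of the 3940-base form was 2.84 ± 0.31% in the wild-type pools against 9.38 ± 5.21% in the MST1-deficient pools (SD, n = 2).

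Stxbp5 encodes tomosyn, which binds syntaxins and holds back fusion (gene 78808, chromosome 10, 9755547 to 9901287). Its form of 9023 bases had 43.81 and 42.38 counts in the wild-type pools against 121.74 and 115.03 in the MST1-deficient pools, without overlap (log2 fold change 1.51, SE 0.415, adjusted p = 0.680 with edgeR). This form entered the test through the MST1-deficient pools alone, since its FPKM was 0.62 and 0.64 in the wild-type pools against 1.98 and 1.52. Its form of 9134 bases had 112.55 and 36.53 against 88.02 and 21.45 counts, with replicate 1 higher in each genotype. The gene sum did not separate as far as the shorter form (log2 fold change 0.65, SE 0.43).

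Vps13d, a lipid transfer protein gene with 5 listed forms (gene 230895, chromosome 4, 144871045 to 145195037), was singled out after its values were seen. Its form of 15758 bases had 98.16 and 105.11 counts in the MST1-deficient pools and 0 in each wild-type pool, at least 35.1-fold higher in the listed values. A missing form cannot be told apart from one assembled in another form. The 15758-base form differs in length by few bases from that of 15774 bases. The latter had 298.68 and 130.55 counts in the wild-type pools against 315.87 and 67.72 in the MST1-deficient pools. The gene sum was 7.04 and 5.97 against 7.68 and 4.69 FPKM and overlapped. The 15758-base form stayed under 1 FPKM (0.91 and 0.79) and was not tested.

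In Stx16 the exchange of forms followed single libraries. Stx16 had 2 forms: that of 3570 bases had 333.73, 310.45 and 254.93 counts in wild-type replicates 1 and 2 and MST1-deficient replicate 2 and was at 0 in MST1-deficient replicate 1. That of 3507 bases had 349.5 counts in MST1-deficient replicate 1, 140.36 in wild-type replicate 1, 58.34 in MST1-deficient replicate 2 and 0 in wild-type replicate 2. In Vps9d1, which encodes a protein with a VPS9 domain, the form of 2905 bases made up 68.0 ± 10.5% of the FPKM in the wild-type pools against 39.7 ± 8.12% in the MST1-deficient pools (SD, n = 2), and the libraries did not overlap.

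**Figure D4:**
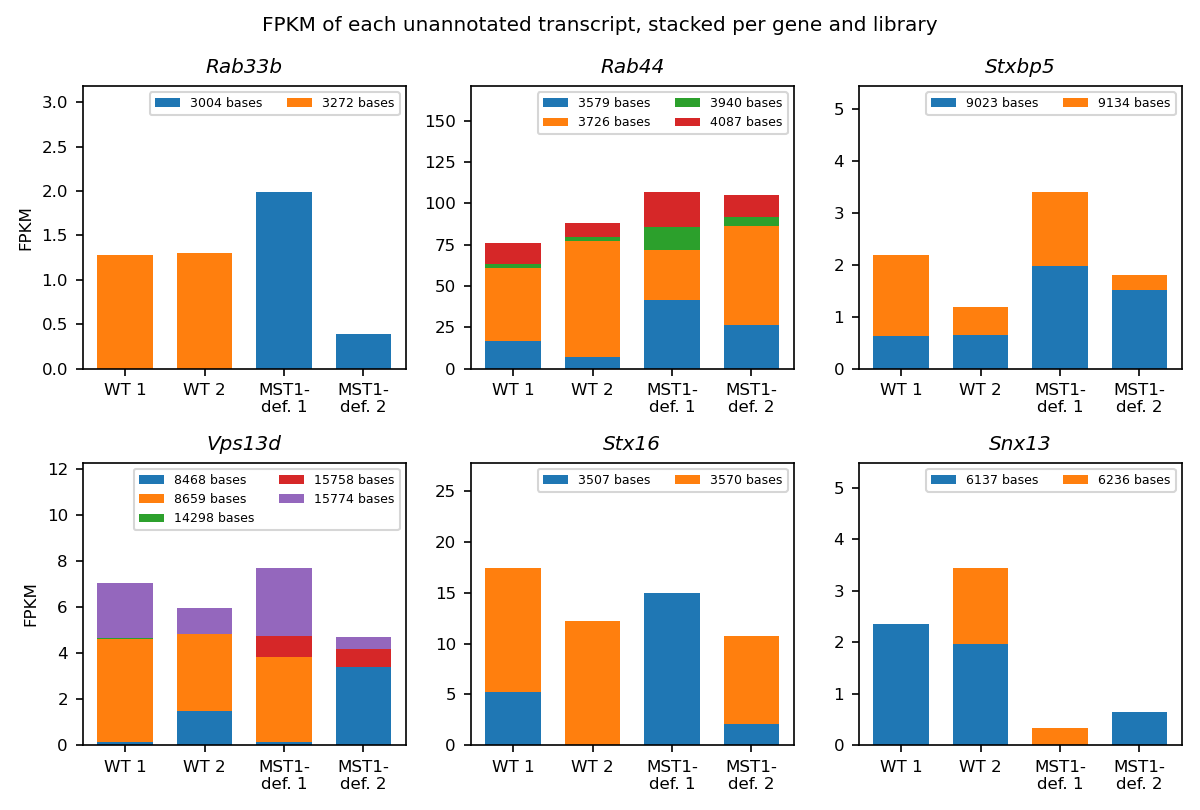
FPKM of each unannotated transcript, stacked per gene and library, for 6 traffic genes; colours mark forms by their length in bases. Rab33b showed the 3272-base form in wild type alone and the 3004-base form in MST1-deficient libraries alone, while the exchanges in Stx16 and Snx13 differed between libraries of 1 genotype.

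The balance among the forms of a gene was tested with diffSplice in 11 members that had at least 2 transcripts past the filter. With it 0 of the 11 passed (1.21% of 909 genes did), and 0 had an unadjusted p under 0.05 (9.68% of 909 genes did). The lowest adjusted p was 0.521, for Vps9d1, followed by 0.613 for Rab44. Of 25 members with several listed forms and a value in every library, 14 (56.0%) had the same leading form in all 4 libraries, beside 46.3% of all such genes.

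In what they share beyond their names, the members resembled the other listed genes. A single unannotated transcript was listed for 66 of the 96 members (68.8%) and for 66.0% of all genes. Member transcripts had a median length of 3940 bases, with a range from 595 (Sec22c) to 15774 (Vps13d), beside a median of 3882 for all genes. Compared with GENCODE M21, 54 of the 137 member transcripts (39.4%) were longer than every annotated transcript of their gene, beside 45.2% of transcripts of all genes. The listed transcript of Ap2m1, of 2937 bases, was the 1 member transcript with the length of an annotated GENCODE transcript of its gene.

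Most members were found in every library. Of the 96 genes 71 were listed in all 4 libraries (74.0%, beside 72.8% of all genes). Of the 137 transcripts 80 were listed in all 4 (58.4%, beside 60.5% of all transcripts). The wild-type pools alone, both of them, listed 2 member transcripts (1.97% of all transcripts had this pattern), and the MST1-deficient pools alone listed 4 (2.23% of all). By gene sums these patterns held for 1 member, Tmed5 (1.25% of all genes), and for 0 (1.4% of all genes). The 2 were those of Tmed5 and Rab33b, and the 4 were a form each of Ap3d1, Sec23b, Rab33b and Vps13d, of which that of Ap3d1 had at most 1.12 counts. A further 8 member transcripts (5.84%, beside 2.6% of all transcripts) were listed in replicate 1 of both genotypes and in neither replicate 2, with at most 12.99 counts each.

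Other genes of the pathway, taken from a list of 145 that the symbol rule does not cover, also gave no call by gene sum. Of these 66 were listed and 46 tested; 0 passed with edgeR and 0 had an unadjusted p under 0.05, where 5.65% of all genes did. Both MST1-deficient libraries lay above wild type in 3 (Golga4, Ap5z1 and Rabgap1l), where 12.4% of all genes did, and below in 7 (Golga2, Washc4, Epn1, Dnm1l, Gdi2, Rin3 and Ap5m1), where 14.1% did. Golga4, a golgin of the trans-Golgi network, had 5.24 and 5.0 FPKM in the wild-type pools against 7.04 and 7.66 in the MST1-deficient pools. Golga2, a golgin of the cis-Golgi, had 10.93 and 13.55 against 6.74 and 7.93 FPKM. Washc4, a subunit of the endosomal WASH complex, had 52.51 and 267.63 against 34.63 and 0 counts, and the wild-type pools differed widely. The median log2 fold change of the list was 0.04, beside 0.01 over all tested genes. In the balance of forms Rabggta passed (adjusted p = 0.0453 with diffSplice), where 1.21% of 909 genes did. Its gene sum overlapped between the groups. Clta, Cltb, Nsf, Sar1a, Arf1 and the KDEL receptor genes had no listed transcript.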

How the data were processed

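RNA-seq lists of unannotated transcripts were deposited, 1 per library, for 2 wild-type and 2 MST1-deficient pools. Per the file headers, the authors' deposited files give an expected count and an FPKM per transcript, with its length and gene number. Per the submitters' processing notes, reads were placed on mm10. Which aligner, assembler, count estimator and annotation were used is not given in the sources used here. These lists are partial, so their totals are not library depths. A transcript missing from a library was taken as 0, and this cannot be told apart from a transcript that was assembled there in another form.

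Symbols came from NCBI gene numbers, 5051 of which matched and 8 did not. Values were summed per gene. Features with at least 1 FPKM in at least 2 libraries were kept. Expected counts were rounded and tested with edgeR 4.0.16 (TMM, quasi-likelihood; library sizes from the kept features) in R 4.3.3, with Benjamini-Hochberg adjustment over all 3221 genes or 4661 transcripts and a threshold of 0.05. For the balance of forms, log2(FPKM + 0.5) entered diffSplice (limma 3.58.1). Alternatives were DESeq2 1.42.0, RLE factors, limma with pseudocounts of 0.1, 0.5 and 1, other filters, a replicate block and leaving out each library. The floor for a group at 0 was 3 counts per library. A permutation of 2 against 2 libraries cannot give a two-sided p under 0.33. The code was tested on simulated data.

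The members and lists were chosen with earlier results of these data known. Named by rule were Tmed5, genes and transcripts with an unadjusted p under 0.05 and no overlap (at most 10 per direction), the 2 most abundant genes of each family, and genes listed in 1 genotype alone with at least 20 counts. All others were named after their values were seen. Gene positions and promoters are those of RefSeq on GRCm38.p6, and transcript lengths were compared with GENCODE M21. The lists were other traffic genes, the marker lists of granulocyte-monocyte progenitors and other blood cells, Y chromosome genes and Stk4. Loci without a gene number were left out of the gene sums and kept among the transcripts. Each SE of a log2 fold change was derived from its F statistic.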

Additional observations from a re-analysis of the deposited data

How the results depend on the processing

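With edgeR 0 genes and 0 transcripts passed in the main test, and 0 did so with RLE factors, with no filter, and without any 1 library (range 0 to 0). The replicate number pairs the libraries by name only (correlation of deviations 0.127 over genes); with it as a replicate block 0 genes and 0 transcripts passed, and the adjusted p of Tmed5 was 0.625. DESeq2 called 46 genes and 103 transcripts, 1 and 2 of them traffic members. limma called 5, 9 and 5 genes with pseudocounts of 0.5, 0.1 and 1, of which 1 in each case was Tmed5, and 5 and 6 transcripts with 0.5 and 1, none of them members. Among features above 0 in all 4 libraries, which leaves out Tmed5, 1 gene and 2 transcripts passed, 0 of them members. The balance of forms passed in 11 genes; in 25 and 7 with pseudocounts of 0.1 and 1, in 7 with no filter, in 3 with transcripts above 0 in all 4 libraries, in 0 with the replicate block and in 0 to 7 without 1 library (0 without either wild-type replicate, 3 and 7 without MST1-deficient replicates 1 and 2). For the balance of forms, 0 members passed under any of these alternatives. The cause of these differences was not tested. Of 93 alternatives over 8 named features, 87 kept direction and side of the threshold, 6 came past it and 0 reversed. These features were named because they separated the groups in these same libraries, so a lack of reversals says little. Tmed5 was counted both by gene sum and by its single transcript, and the 6 were fits of Tmed5 and of a form of Rab44. With 2 pools per genotype, a median SE of 0.448 on the log2 scale for member genes limits what could be detected.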
